A study of Mus musculus with 6 samples.

Results

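The 33 genes described here encode the enzymes, regulators and carriers that bring glucose into a cell, split it to pyruvate, divert part of it through the pentose phosphate pathway, and exchange or export the lactate formed. They were chosen by name, with earlier results of these data known. A gene was followed through the probe sets that the array's annotation assigns to that gene alone. Of the 33 genes, 29 had such a gene value (of 18193 genes on the array), and 28 were bright enough to be tested (of 12681 genes). The tissue was whole lateral ventricle choroid plexus, and the 2 groups were 3 male CD1 mice aged 18 months and 3 male CD1 mice aged 2 months. CD1 is an outbred stock, so mice of one age also differ in genotype. The labels name no treatment or engineered allele for either age, and every array carried the pooled left and right plexus of a single animal. The purpose, as far as the labels state it, was to set aged against young tissue.

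Choroid plexus epithelium secretes cerebrospinal fluid by active ion transport and therefore spends much energy. Glucose enters by facilitated carriers, hexokinase traps it as glucose 6-phosphate, and phosphofructokinase commits it to glycolysis. Pyruvate is then either reduced to lactate by lactate dehydrogenase or admitted to the mitochondrion by the pyruvate dehydrogenase complex, which pyruvate dehydrogenase kinases switch off. The pentose phosphate branch yields NADPH for reductive synthesis and for glutathione, and ribose for nucleotides.

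All values are log2 intensities from the authors' normalized table, one per mouse, and a difference is 18 months minus 2 months. They compare one transcript between samples and do not rank transcripts against each other. The mean log2 intensity of 10 markers of plexus epithelium lay between 12.49 and 12.54 at 18 months and between 12.41 and 12.54 at 2 months. Single markers moved both ways under this mean. All 3 mice at 18 months lay above all 3 at 2 months for Aqp1 and Krt18, and below for Kcne2, Sostdc1 and Ttr. In either direction, that is 5 of 10, against 13.3% of all genes tested. Transcripts of surrounding brain were also read, at levels that differed between mice. The mean of 10 neuron markers ran from 6.76 to 8.51 at 18 months and from 6.81 to 8.48 at 2 months, and that of 8 astrocyte markers from 7.70 to 8.57 and from 7.24 to 8.33. In whole tissue, fewer cells of a type and less RNA per cell cannot be told apart.

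The genes of glucose breakdown lay slightly higher at 18 months, by amounts near the spread between mice. The difference was above 0 for 22 of the 28 genes tested, against 50.4% of all genes tested, and its median was 0.15, against 0.00 over all genes. None passed the test: by limma, 0 of the 28 had an adjusted p under 0.05, and over all 12681 genes 0 did (0%). At an unadjusted p under 0.05, 2 members were higher (Hk2 and Pgd, 7.14%, against 4.02% of all genes) and 0 were lower (against 3.03%), where 7.05% of all genes passed in either direction. All 3 mice at 18 months lay above all 3 at 2 months for 6 members (Hk2, Pfkfb4, Aldoa, Tpi1, Ldha and Pgd), or 21.4%, against 7.06% of all genes. They lay below for 1 member (Pdk3), against 6.25% of all genes. The members were chosen with earlier results of these data known, so these shares describe the list and are no test of it.

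The shift was not even across mice. The median deviation of the 28 members from their own means was -0.04, 0.10 and 0.08 in 18-month replicates 1, 2 and 3, against -0.09, -0.03 and -0.05 in 2-month replicates 1, 2 and 3. Replicate 1 at 18 months therefore lay among the 2-month mice. Of 6 macrophage and microglia markers tested, 5 were above 0. Their mean was 7.93, 7.48 and 8.28 at 18 months against 7.31, 7.23 and 7.44 at 2 months. The lowest of these means at 18 months lay just above the highest at 2 months, and their order within each age differed from that of the members. The markers Itgam, Adgre1 and Lyve1 were too dim to test. Of 9 oligodendrocyte markers 8 were above 0, with means of 7.48 to 8.95 at 18 months against 6.58 to 8.47 at 2 months. All 8 ependymal markers were below 0, as were 6288 of all 12681 genes tested, with means of 7.76 to 8.43 against 8.39 to 9.18. Their differences were uneven, from -0.02 (Dynlrb2 and Rarres2) to -2.81 (Fam183b). For 3 of the 8, all older mice lay below all younger ones, against 6.25% of all genes. The part of these cells in the members' values was not tested.

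**Figure D1:**
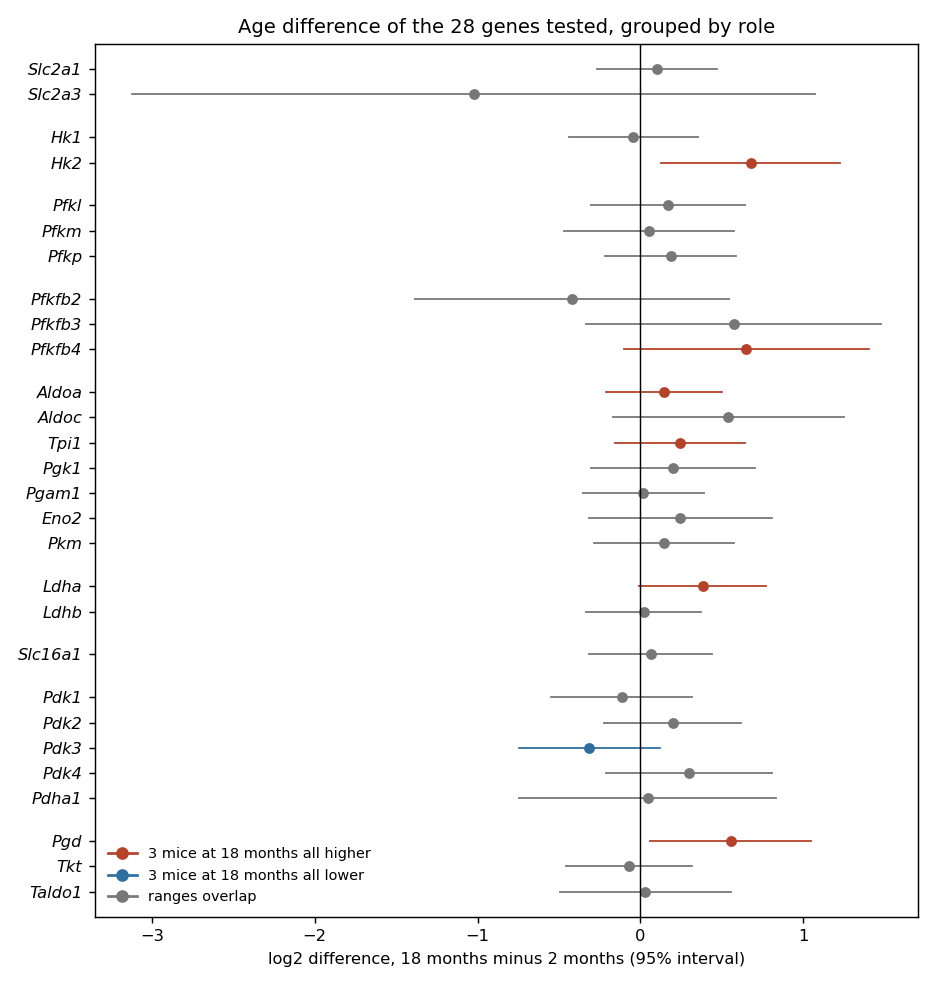
Log2 difference (18 months minus 2 months) of the 28 members tested, grouped by role from glucose transport at the top to the pentose phosphate pathway at the bottom. Points are estimates from limma with 95% intervals (3 mice per age), and colour marks genes whose 3 mice of one age all lay beyond the 3 of the other. The intervals of Hk2 and Pgd lie above 0, and all others include 0.

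**Figure D2:**
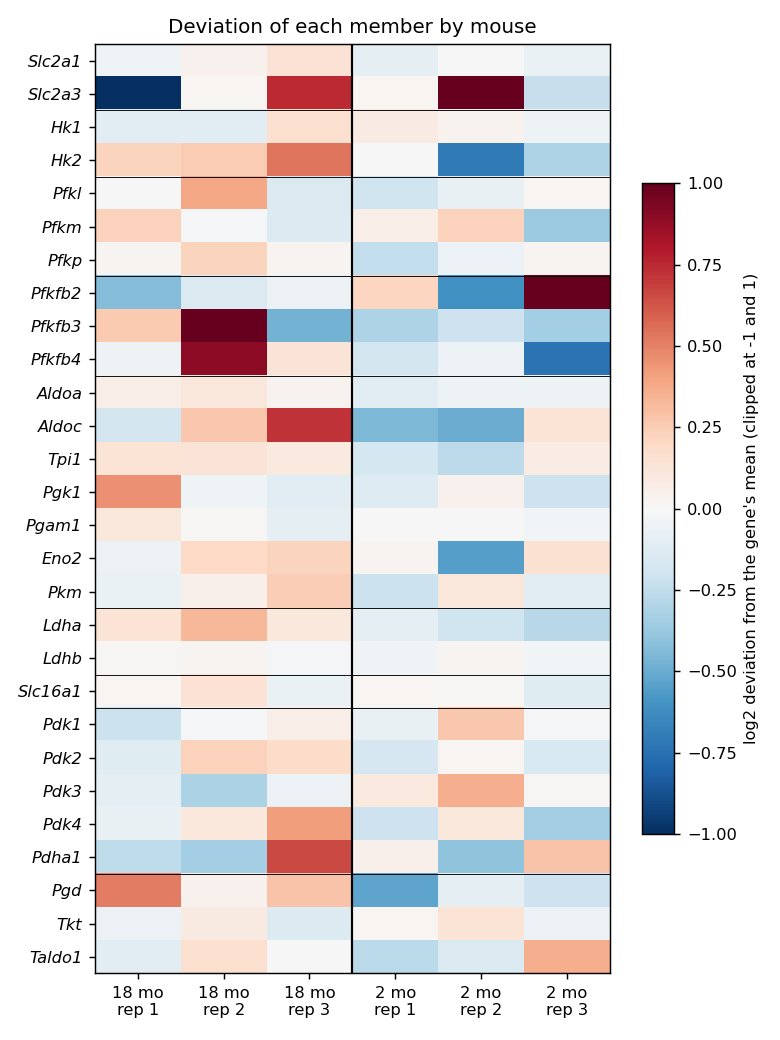
Log2 deviation of each member from its own mean over the 6 mice, with the 18-month mice on the left of the black line and the 2-month mice on the right. Colours are clipped at -1 and 1. Hk2, Aldoa, Tpi1, Ldha and Pgd are above their mean in every 18-month mouse, Pfkfb4 in all but replicate 1, while Slc2a3, Pfkfb2 and Pdha1 differ more between mice of one age than between ages.

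Members that lay apart by age, Hk2 and Ldha, and the paralog Ldhb, which did not, are shown with the 250 bases upstream of their annotated start (RefSeq, build GRCm38.p6, gene strand). Capitals mark the letters ACGTG read on either strand, the core that hypoxia-inducible factors, and with a leading C (CACGTG) the E-box factors such as Myc and the clock proteins, are known to bind.
Hk2, chr6:82774455-82774704, minus strand: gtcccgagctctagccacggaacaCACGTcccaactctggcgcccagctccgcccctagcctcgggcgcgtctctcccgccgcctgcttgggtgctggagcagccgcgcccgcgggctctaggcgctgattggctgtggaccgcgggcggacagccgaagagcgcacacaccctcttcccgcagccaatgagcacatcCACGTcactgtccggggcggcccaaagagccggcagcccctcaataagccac
Ldha, chr7:46845554-46845803, plus strand: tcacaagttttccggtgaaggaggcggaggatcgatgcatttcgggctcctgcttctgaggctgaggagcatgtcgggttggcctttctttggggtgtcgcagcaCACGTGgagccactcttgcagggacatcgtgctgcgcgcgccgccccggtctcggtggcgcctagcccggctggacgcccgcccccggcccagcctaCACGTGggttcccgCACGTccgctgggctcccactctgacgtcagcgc
Ldhb, chr6:142507958-142508207, minus strand: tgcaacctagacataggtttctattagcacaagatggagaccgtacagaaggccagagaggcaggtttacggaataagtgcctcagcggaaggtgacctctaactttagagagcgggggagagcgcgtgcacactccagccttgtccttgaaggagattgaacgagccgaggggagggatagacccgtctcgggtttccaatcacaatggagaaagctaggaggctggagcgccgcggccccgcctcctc
The Hk2 window holds the letters at 2 places, starting 226 and 52 bases before the start. The Ldha window holds them at 3 places, of which 2 are the palindrome CACGTG, while a second annotated Ldha start has 0 in its window. The Ldhb window holds 0, and so do both Hk1 windows. Of the other members with separate ranges, Aldoa and Pdk3 have windows that hold the letters, though another Aldoa window holds 0. The windows of Pgd, Tpi1 and Pfkfb4, whose ranges were also separate, hold 0. Pgk1, Pfkm, Slc2a1, Slc16a1, Pdk2, Pfkfb2, Pfkfb3, Pgam1 and Pkm, whose ranges overlapped, have windows that hold them. So does Slc16a3, which was too dim to test. Binding at these letters, and any link between them and the age differences, was not tested. The letters were present in 18 of 49 windows of the members (36.7%) and in 16.6% of all 32851 windows, and CACGTG in 12.2% and 6.02%. The member windows also held more CG dinucleotides, with a median of 14 against 6 over all windows. Of the 33 genes, 32 matched an entry in the promoter table.

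Hexokinases phosphorylate glucose on entry. Hk2, the inducible isoform bound to mitochondria, had log2 intensities of 6.49, 6.52 and 6.80 at 18 months, against 6.26, 5.56 and 5.95 at 2 months. The 3 older mice all lay above the 3 younger ones, which were also more scattered. This is 1.60-fold higher (log2 difference 0.68, SE 0.23, 95% interval 0.13 to 1.22, limma adjusted p = 0.672). Hk1, the constitutive isoform, had 9.99, 9.98 and 10.26 at 18 months, against 10.18, 10.14 and 10.05 at 2 months. Its ranges overlapped and its difference was -0.04 (95% interval -0.44 to 0.35). A dimmer Hk1 probe set gave -0.31 (SE 0.22), with 8.58, 9.19 and 9.15 in the 18-month mice, all below 9.25, 9.35 and 9.26 in the 2-month mice. The within-array log2 ratio of Hk2 to Hk1 was 0.72 higher at 18 months (SD 0.02 at 18 months and 0.34 at 2 months, n = 3 each, exact permutation p = 0.1, adjusted p = 0.3 over 6 isoform pairs, two-sided). With 3 mice against 3, this exact permutation test cannot give a p below 0.1.

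Slc2a1 encodes GLUT1, the glucose carrier of blood vessels and plexus epithelium. It had 12.16, 12.24 and 12.34 at 18 months, against 12.10, 12.20 and 12.13 at 2 months, and its interval, -0.27 to 0.47, includes 0. Slc2a3 encodes GLUT3, the main carrier of neurons, and varied most of all members, with a pooled SD of 1.36 against a median of 0.19 over the members. It had 5.57, 7.89 and 8.62 at 18 months, against 7.89, 9.62 and 7.64 at 2 months, so mice of one age differed by more than the ages did (difference -1.02, SE 0.88). Its order over mice was that of the neuron means at 18 months (6.76, 7.40 and 8.51) and the reverse at 2 months (7.26, 6.81 and 8.48). The highest value, in 2-month replicate 2, came with a neuron mean of 6.81, and the second highest, in 18-month replicate 3, with one of 8.51. The part of brain tissue in the Slc2a3 values was not tested. A second probe set of Slc2a3 gave the same picture (-1.34), and the other 2 lay between 3.60 and 4.37 in all mice, within the range of 27 probe sets for bacterial transcripts (up to 4.51), so that they carry no signal here. The difference ranged from -1.65 (without 18-month replicate 3) to -0.13 (without 18-month replicate 1), and was -2.02 without both arrays with the highest neuron mean.

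**Figure D3:**
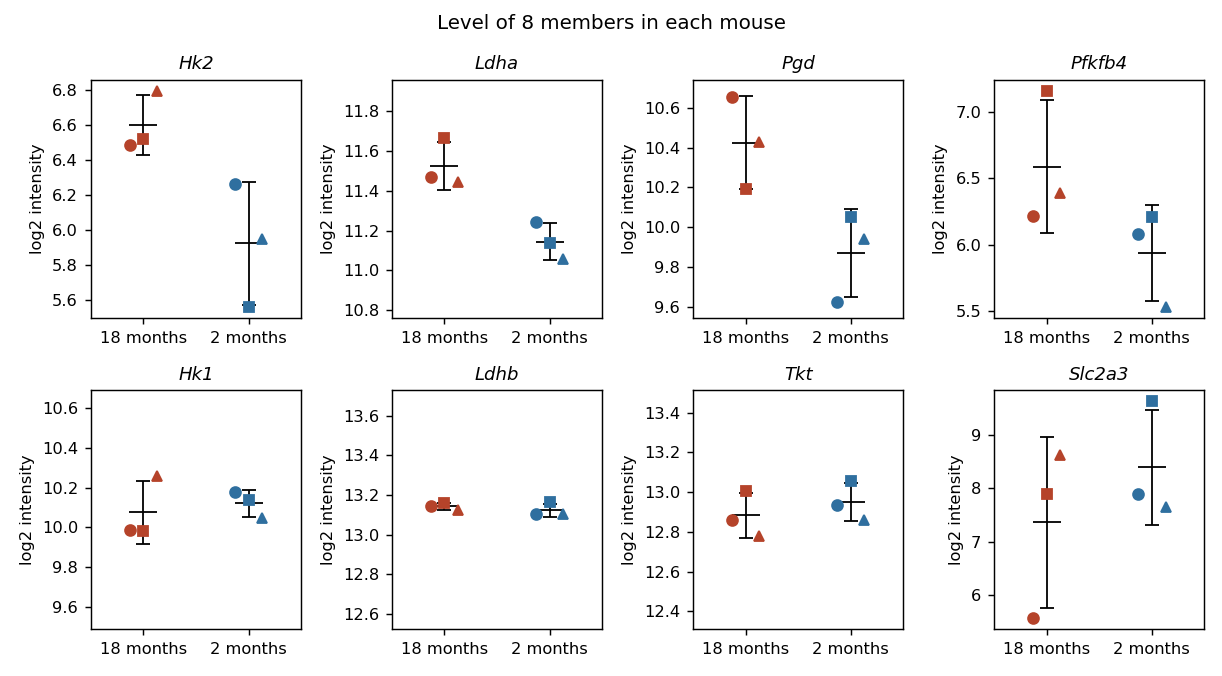
Log2 intensity of 8 members in each mouse, 18 months left and 2 months right in every panel. Circles, squares and triangles are replicates 1, 2 and 3, bars are the mean and SD (n = 3), and each panel has its own axis of at least 1.2 log2 units. The top row holds 4 genes with separate ranges. Hk1, Ldhb and Tkt overlap, and Slc2a3 spans 5.57 to 9.62.

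Phosphofructokinase, the committing enzyme, is built from 3 subunit types. Pfkl (liver type) differed by 0.17 (SE 0.20), Pfkm (muscle type) by 0.05 (SE 0.22) and Pfkp (platelet type) by 0.19 (SE 0.17), and all 3 had overlapping ranges. Pfkl was 0.02 without 18-month replicate 2, and Pfkm ran from -0.12 to 0.18 when single mice were left out. The 3 probe sets of Pfkp did not give one answer. The brightest gave 0.19, a second gave 0.10, and the dimmest gave 0.95 (SE 0.28, limma adjusted p = 0.675 over 23322 probe sets). That dimmest probe set read 8.11, 8.34 and 8.10 at 18 months, against 7.48, 6.65 and 7.56 at 2 months, with separate ranges. The log2 ratio of Pfkp to Pfkl was 0.02 higher at 18 months (exact permutation p = 0.8), within the spread between mice.

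The Pfkfb enzymes set the level of fructose 2,6-bisphosphate, the activator of phosphofructokinase. Pfkfb4 had 6.21, 7.16 and 6.39 at 18 months, against 6.08, 6.20 and 5.53 at 2 months. The ranges were separate but nearly touched, and the interval of the difference includes 0 (0.65, 95% interval -0.10 to 1.40, limma adjusted p = 0.746). It was 0.36 without 18-month replicate 2 and 0.44 without 2-month replicate 3. Pfkfb3, the isoform with the strongest kinase activity, had 5.41, 6.22 and 4.68 at 18 months, against 4.84, 4.94 and 4.81 at 2 months. Replicate 2 at 18 months carried most of its difference of 0.57 (SE 0.38), which was 0.18 without that mouse, and its 2-month mean of 4.86 lay under the filter of 4.92, so that it was tested only through its level at 18 months. Pfkfb2, known as the heart isoform, ran the other way, reading 7.75, 8.04 and 8.12 at 18 months, against 8.39, 7.57 and 9.20 at 2 months (difference -0.42, SE 0.40). It was -0.01 without 2-month replicate 3 and -0.83 without 2-month replicate 2. All 4 of its probe sets were below 0, between -0.48 and -0.07.

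Every tested enzyme between aldolase and pyruvate kinase had a difference above 0, 7 of 7, with a median of 0.20. Aldoa, the main aldolase, had 13.00, 13.05 and 12.98 at 18 months, against 12.83, 12.88 and 12.89 at 2 months. The ranges did not overlap, the mice of one age spread by only 0.04 (pooled SD), and the difference was 0.14 (SE 0.15, limma adjusted p = 0.868). The SE is wider than that spread because limma draws the spread of each gene towards that of all genes. Its 5 probe sets all lay above 0, from 0.06 to 0.18. Tpi1, triose phosphate isomerase, had 11.42, 11.41 and 11.38 at 18 months, against 11.11, 11.03 and 11.36 at 2 months, where replicate 3 came close to the older mice (difference 0.24, SE 0.17).

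Aldoc, the aldolase of astrocytes and other brain cells, had 9.56, 10.02 and 10.47 at 18 months, against 9.30, 9.25 and 9.88 at 2 months. The ranges overlapped through 2-month replicate 3, and the difference was 0.54 (SE 0.30), or 0.52 with the neuron markers as a covariate. It was 0.31 without 18-month replicate 3 and 0.77 without 18-month replicate 1. Within each age, the order of Aldoc over mice was that of the astrocyte means (7.70, 7.77 and 8.57 at 18 months, 7.84, 7.24 and 8.33 at 2 months). The part of astrocytes in the Aldoc difference was not tested. A dimmer probe set of Aldoc gave 0.03. Eno2, the neuronal enolase, had 10.61, 10.87 and 10.89 at 18 months, against 10.70, 10.12 and 10.83 at 2 months. One younger mouse, replicate 2, was low, and without it the difference of 0.25 (SE 0.23) was 0.03. Pkm (pyruvate kinase, 0.15, SE 0.18), Pgk1 (phosphoglycerate kinase, 0.20, SE 0.21) and Pgam1 (phosphoglycerate mutase, 0.02, SE 0.15) all had overlapping ranges. Of these, Pgk1 stood at 12.81 in 18-month replicate 1 and between 12.14 and 12.39 in the other 5 mice, and without that mouse its difference was 0.02. Its 3 probe sets, all highest in that mouse, gave between 0.19 and 0.20. Pkm was 0.06 without 18-month replicate 3.

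Gapdh, the glyceraldehyde phosphate dehydrogenase often used as a loading standard, was read here only by the 3 control probe sets that Affymetrix places along its transcript. At the 3′ end it had 13.50, 13.46 and 13.51 at 18 months, against 13.37, 13.32 and 13.33 at 2 months. In the middle it had 12.68, 12.39 and 12.50 against 12.23, 12.27 and 12.19, and at the 5′ end 12.25, 12.00 and 11.96 against 11.70, 11.89 and 11.73. All 3 probe sets had separate ranges, with differences of 0.15 (SE 0.16), 0.29 (SE 0.17) and 0.30 (SE 0.18), and none passed by limma over 23322 probe sets (adjusted p = 0.902, 0.819 and 0.828). The distance between the 3′ and 5′ probe sets, which grows with RNA breakage and incomplete copying, was 1.24, 1.45 and 1.55 at 18 months, against 1.67, 1.43 and 1.60 at 2 months (two-sided p = 0.3 by exact permutation, where 0.1 is the smallest that can be had). The part of transcript integrity in the Gapdh difference was not tested.

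Lactate dehydrogenase is a tetramer of 2 subunit types, and the Ldha subunit favours lactate formation whereas Ldhb favours its oxidation. Ldha had 11.47, 11.67 and 11.45 at 18 months, against 11.24, 11.14 and 11.06 at 2 months. All older mice lay above all younger ones. This is 1.30-fold higher (log2 difference 0.38, SE 0.16, 95% interval -0.01 to 0.77, limma adjusted p = 0.711). Ldhb was the steadiest member, reading 13.14, 13.16 and 13.12 at 18 months, against 13.10, 13.16 and 13.11 at 2 months. Its pooled SD was 0.03 and its difference 0.02, and its 4 probe sets gave from -0.04 to 0.02. The log2 ratio of Ldha to Ldhb was 0.36 higher at 18 months (SD 0.10 at each age, n = 3, exact permutation p = 0.1, adjusted p = 0.3), or 1.29-fold, and its ranges were separate. Leaving out single mice moved it between 0.30 and 0.42. A ratio within an array does not show that either subunit transcript stayed constant.

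Lactate crosses membranes on monocarboxylate carriers. Slc16a1, which encodes the widespread carrier MCT1, had 9.23, 9.36 and 9.15 at 18 months, against 9.23, 9.23 and 9.09 at 2 months, with an interval of -0.32 to 0.44. Slc16a3, the exporter MCT4 of strongly glycolytic cells, lay between 3.54 and 3.94 at 18 months and between 3.38 and 3.96 at 2 months. These values are within those of the bacterial transcripts, so Slc16a3 was not above background at either age and no fold is given.

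The gate between glycolysis and mitochondrial oxidation showed members on both sides of 0. Pdk3, a pyruvate dehydrogenase kinase, had 8.30, 8.07 and 8.32 at 18 months, against 8.48, 8.75 and 8.40 at 2 months. Of the 28 members tested it was the only one with all older mice below all younger ones at its brightest probe set (difference -0.31, SE 0.18, limma adjusted p = 0.779). Pdk4, the kinase induced by fasting and glucocorticoids, had 9.43, 9.61 and 9.93 at 18 months, against 9.30, 9.62 and 9.16 at 2 months (0.30, SE 0.21), and was 0.16 without 18-month replicate 3. Pdk2 gave 0.20 (SE 0.18). Pdk1, a kinase known to be induced by hypoxia, gave -0.11 (SE 0.18) at its brightest probe set, and -0.01 without 2-month replicate 2. Its 2 dimmer probe sets above the filter gave -0.54 and -0.79, the last with separate ranges. Pdha1, the catalytic subunit that these kinases phosphorylate, had 10.57, 10.48 and 11.48 at 18 months, against 10.87, 10.42 and 11.11 at 2 months. Replicate 3 was the highest of each age, and the sign of its difference of 0.04 (SE 0.33) turned when 18-month replicate 3 was left out (-0.28).

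Pgd encodes the 6-phosphogluconate dehydrogenase of the oxidative, NADPH-forming arm of the pentose phosphate pathway. It had 10.66, 10.19 and 10.43 at 18 months, against 9.62, 10.05 and 9.94 at 2 months. The ranges were separate, at their closest between 18-month replicate 2 and 2-month replicate 2, and Pgd was 1.47-fold higher (log2 difference 0.55, SE 0.21, 95% interval 0.06 to 1.05, limma adjusted p = 0.682). All 4 of its probe sets lay above 0, from 0.37 to 0.55, and 3 of the 4 had separate ranges, including the one that stands for the gene. The dimmest gave 0.44 (SE 0.34), and its ranges overlapped. There, 2-month replicate 2 (8.42) lay above 18-month replicates 2 (8.39) and 3 (7.76). Whether any of these Pgd probe sets also reads other transcripts was not tested. Both members of the non-oxidative arm had overlapping ranges. Tkt, transketolase, had 12.86, 13.01 and 12.78 at 18 months, against 12.94, 13.05 and 12.86 at 2 months (-0.07, SE 0.16), while its dimmest probe set gave 0.54. Taldo1, transaldolase, had 8.01, 8.29 and 8.12 at 18 months, against 7.86, 7.98 and 8.49 at 2 months (0.03, SE 0.22).

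**Figure D4:**
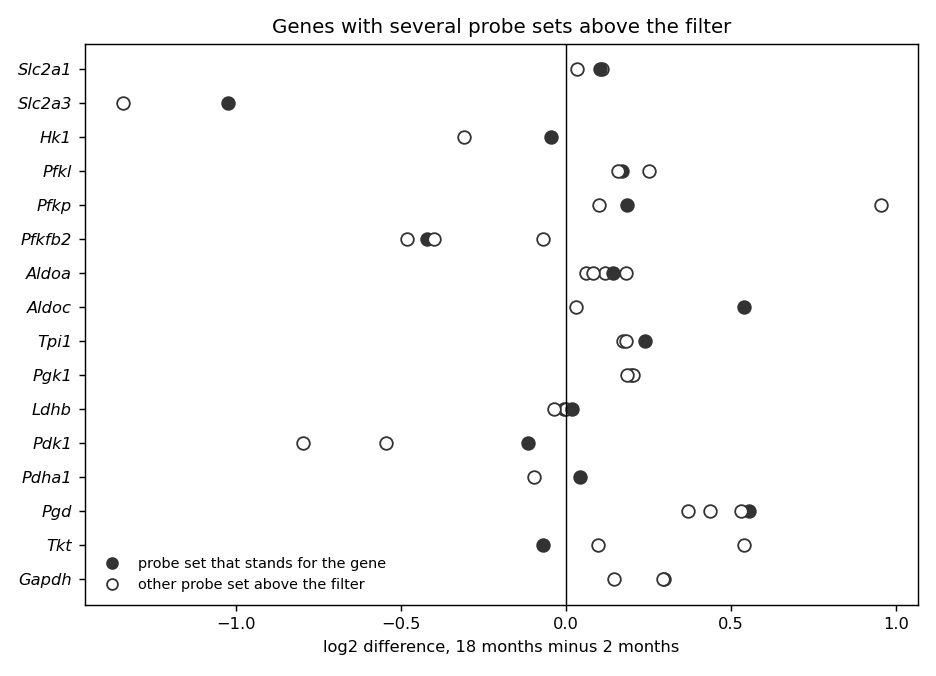
Log2 difference (18 months minus 2 months) of every probe set above the filter, for the 16 genes with 2 or more. Filled circles stand for the gene, and open circles are its other probe sets. All probe sets of a gene lie on one side of 0 for 13 of the 16 genes, and Ldhb, Pdha1 and Tkt straddle 0.

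Over all members, 62 probe sets passed the filter, and probe sets of one gene gave the same sign for 13 of the 16 genes that had several. Of the 62, 16 had all 3 older mice above all 3 younger ones, against 6.81% of all 23322 probe sets tested, and 4 had them below, against 5.84%. Probe sets of one gene share its transcript and are not independent.

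No value could be given to Gpi1 (glucose phosphate isomerase), Eno1 (the general enolase) or G6pdx (the entry enzyme of the pentose phosphate pathway), which have no probe set named for them here. Gapdh had 3 probe sets outside the controls, which were not used because the annotation gives them several symbols. A further 116 genes around the same pathways, on 8 lists, gave no common direction. Of 92 tested, 47 were above 0, 5 were higher and 5 lower at an unadjusted p under 0.05, and 0 passed limma's adjusted threshold. Their median was 0.02.

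Glucose transport held the gene with the smallest p of these lists. Slc2a4, which encodes GLUT4, the insulin-responsive carrier of muscle and fat, had 7.95, 8.19 and 8.47 at 18 months, against 6.98, 7.18 and 6.57 at 2 months. All older mice lay above all younger ones, by 2.45-fold (log2 difference 1.29, SE 0.23, 95% interval 0.73 to 1.85, limma adjusted p = 0.328), and its second probe set gave 1.16. Slc5a2, the sodium-coupled glucose carrier of the kidney tubule, had 8.73, 8.52 and 8.75 at 18 months, against 7.90, 7.85 and 8.20 at 2 months (0.69, SE 0.18, adjusted p = 0.568 by limma). Of the 11 genes tested on this list, 8 were above 0 and the median was 0.37.

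Of the glycogen and gluconeogenesis genes 7 of 17 were above 0 (41.2%, against 50.4% of all genes tested), with a median of -0.16. Pygb and Pygl, which encode 2 of the 3 glycogen phosphorylases tested, had the smallest p of this list. Pygb, the brain form, had 10.44, 10.57 and 10.35 at 18 months, against 10.93, 10.80 and 11.06 at 2 months (-0.48, SE 0.17). Pygl, the liver form, had 6.61, 5.84 and 6.37 at 18 months, against 7.06, 6.84 and 6.86 at 2 months (-0.65, SE 0.24). Both had separate ranges, and limma's adjusted p was 0.672 and 0.682. Pygm, the muscle form, had overlapping ranges and a difference of -0.09 (SE 0.25).

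**Figure D5:**
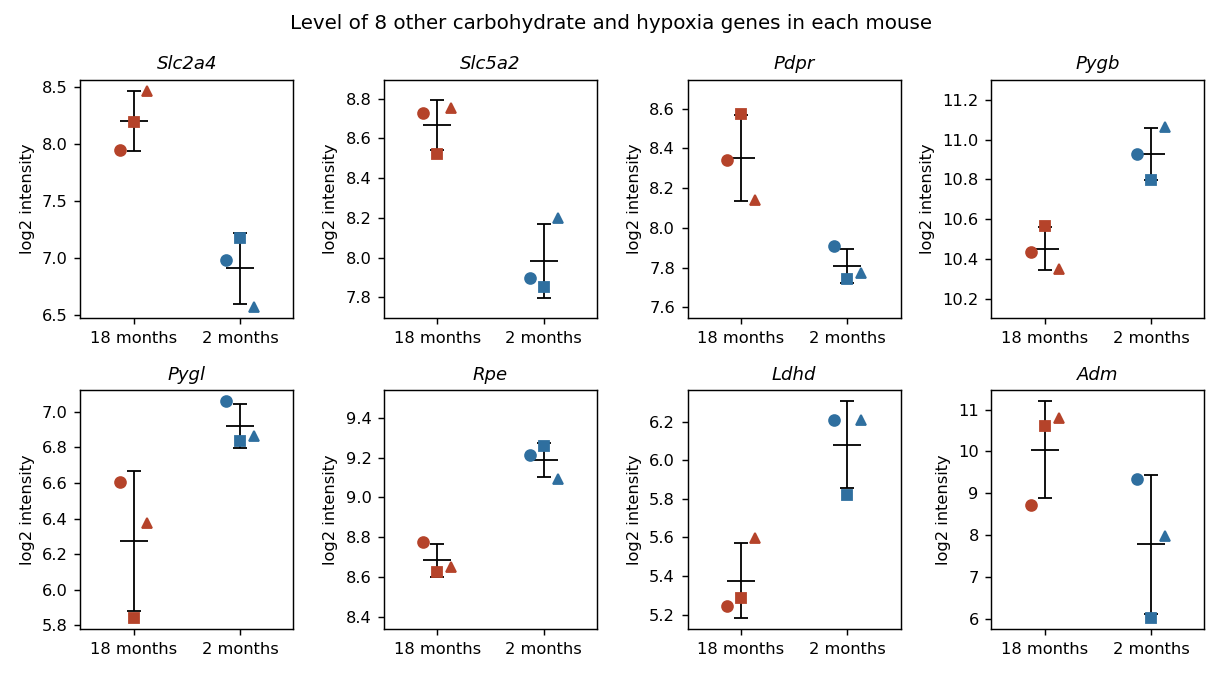
Log2 intensity of 8 genes from the surrounding pathways in each mouse, 18 months left and 2 months right. Symbols are replicates 1, 2 and 3 (circle, square, triangle), and bars are the mean and SD (n = 3). Slc2a4, Slc5a2 and Pdpr lie higher at 18 months, Pygb, Pygl, Rpe and Ldhd lie lower, and Adm overlaps.

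Elsewhere in the pentose phosphate pathway, Rpe, the ribulose phosphate epimerase, had 8.77, 8.62 and 8.65 at 18 months, against 9.21, 9.26 and 9.09 at 2 months (-0.51, SE 0.16), with all 3 of its probe sets below 0. H6pd, which starts the same pathway inside the endoplasmic reticulum, gave 0.85 (SE 0.46) and 0.36 without 2-month replicate 3, and 5 of 8 genes on that list were above 0. Among other genes of lower glycolysis, 6 of 11 were above 0. Ldhd, which oxidises D-lactate in mitochondria, had 5.25, 5.28 and 5.60 at 18 months, against 6.21, 5.82 and 6.21 at 2 months (-0.70, SE 0.20), but its second probe set gave -0.08. Gpd1, the cytosolic glycerol phosphate dehydrogenase, gave -0.40 (SE 0.18), and 0.15 at a second probe set. Of hexose entry genes, 7 of 9 were below 0. Pgm2l1, which makes glucose bisphosphate in brain, gave 1.54 (SE 0.55, and 1.01 without 2-month replicate 2), with overlapping ranges. Its dimmer probe sets gave 0.38 and 0.67. Pgm1, a phosphoglucomutase, gave -0.25 (SE 0.16).

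Pyruvate entry to mitochondria was even, with 4 of 9 genes above 0. Pdpr, the regulatory subunit of the phosphatase that reactivates pyruvate dehydrogenase, had 8.34, 8.57 and 8.14 at 18 months, against 7.91, 7.74 and 7.77 at 2 months (0.54, SE 0.18), and all 4 of its probe sets lay above 0, from 0.19 to 0.54. Pdp1, a catalytic subunit of that phosphatase, gave -0.61 (SE 0.34) and 0.18 at a second probe set. Monocarboxylate carriers were even too, with 4 of 8 above 0. Slc16a8, which encodes the epithelial carrier MCT3, had 9.89, 9.77 and 9.84 at 18 months, against 10.22, 8.62 and 8.22 at 2 months, so that its difference of 0.81 (SE 0.50) came with a wide spread among the younger mice and ran from 0.41 to 1.41 when single mice were left out. Slc16a6 gave -0.28 (SE 0.19).

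Hypoxia-inducible factors and other genes known as their targets gave 11 of 19 above 0 and a median of 0.08. Adm, the vasodilator peptide adrenomedullin, had the largest difference of the list, reading 8.71, 10.61 and 10.81 at 18 months, against 9.34, 6.01 and 7.97 at 2 months. Its values overlapped between the ages (2.27, SE 0.93), and the difference was 1.39 without 2-month replicate 2. A second Adm probe set was below the filter (mean 3.58) and gave -0.08, and the mean of all its probe sets gave 1.09. Ddit4, an inhibitor of mTOR signalling, gave 0.21 (SE 0.16) with separate ranges. Car9 and Egln3, 2 genes often read as signs of hypoxia, were below the filter.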

How the data were processed

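Per the labels' protocols, miRNeasy-purified RNA went through Nugen Pico amplification, and the cDNA was biotinylated for Affymetrix arrays. The authors deposited intensity values for 45101 probe sets on 6 arrays, made with RMA per the submitters' processing notes, with no version or genome build given in the sources used here. RMA corrects background, normalizes between arrays and merges the probes of a probe set. The values were linear (2.47 to 26820.7), so log2 was taken. The number of arrays limits the precision, and amplification can distort dim transcripts.

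Of 45037 probe sets that are not controls, 34945 carried 1 gene symbol, 932 several and 9160 none. The brightest probe set of a symbol represented it. Testing was limited to genes whose mean reached the 40th percentile of these probe sets (log2 4.92). Ages were compared with limma 3.58.1 in R 4.3.3 (no covariates, two-sided, Benjamini-Hochberg over 12681 genes, threshold 0.05), and the Gapdh controls and other probe sets in the same fit over 23322 probe sets. The fit was tested on simulated data whose planted differences were larger than those of nearly all members. That test therefore does not show how well differences of the size found here are detected. Isoform ratios were compared by exact permutation over mice for 6 of 8 pairs, since Eno1 had no value and Slc16a3 was below the filter. The members, the lists and the tests were chosen with earlier results of these data known. All members are named, and of each other list the 2 genes with the smallest p. Alternatives were other filters, the mean of all probe sets, quantile normalization, median centring, moderation with an intensity trend, array weights, a replicate block, a neuron covariate and leaving out each mouse. Leaving out both arrays with the most neuron signal, and the alternatives for the genes of the other lists, were added after seeing the data.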

Additional observations from a re-analysis of the deposited data

How the results depend on the processing

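The median difference of the members ran from 0.10 to 0.19 over all alternatives (0.10 to 0.16 when single mice were left out), and 0 members passed the adjusted threshold in any. Over all genes, limma passed 4 genes with the 60th percentile filter, 5 with the mean of all probe sets, 5 with median centring, 2 with an intensity trend, 4 with array weights and 1 with the neuron covariate, and 0 whichever single mouse was left out. Members higher at an unadjusted p under 0.05 numbered 2 in the reported fit and 4 with an intensity trend (Hk2, Aldoa, Ldha and Pgd). They numbered 1 without 18-month replicate 3 (Pfkfb3), 1 without 2-month replicate 1 (Hk2), 1 without 2-month replicate 2 (Pgd, with Pfkfb2 lower) and 0 without 2-month replicate 3, and 1 (Pfkfb3) without both arrays with the highest neuron mean. Of all genes, between 3.21% and 4.46% were higher at that threshold, depending on the setting, so a count of 1 of 28 members is near that share. Pgd was also lost with the mean of all probe sets (Hk2, Pfkp and Ldha), with the replicate block (Hk2, Pfkfb4 and Aldoc) and without 18-month replicate 1 (Hk2 and Aldoc). With the 60th percentile filter Hk2 was too dim to be tested, and Ldha and Pgd were called. The 3 same-numbered pairs of mice had residual correlations of -0.02, 0.02 and 0.17, and the other pairs from -0.15 to 0.14. These few values cannot settle whether the numbers pair the mice. With the replicate block 0 genes passed and the members' median was 0.15.

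Of 444 values of single members under the alternatives, 428 kept their sign and 16, from 7 members, did not. With the mean of all probe sets Ldhb gave -0.00485, Pdha1 -0.0255 and Tkt 0.19, and the ratio of Pfkp to Pfkl 0.22, since their dimmer probe sets enter. Pdha1 gave -0.0504 with array weights. Without both arrays with the most neuron signal, Pdha1 gave -0.12 and Pfkm -0.0383. When single mice were left out, Hk1 ranged from -0.13 to 0.00349, Pdha1 from -0.28 to 0.23, Pfkm from -0.12 to 0.18, Pgam1 from -0.0356 to 0.0713 and Taldo1 from -0.0945 to 0.22. Hk2 ranged from 0.49 to 0.85, Ldha from 0.31 to 0.43 and Pgd from 0.43 to 0.67. Of the ratios, Hk2 to Hk1 ranged from 0.53 to 0.86, Aldoc to Aldoa from 0.15 to 0.62, Slc2a3 to Slc2a1 from -1.71 to -0.28, Pdk4 to Pdk2 from 0.01 to 0.19 and Pfkp to Pfkl from -0.06 to 0.10. Of the other lists' genes, Pgm1 gave 0.0346 with the mean of all probe sets, while Slc2a4 stayed between 0.99 and 1.43.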
